A study of Mus musculus with 12 samples.

Results

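Chemokine and chemokine receptor genes were read from whole-kidney RNA-seq of mice with polycystic kidney disease, with and without a deletion of the miR-17 motif in the 3′-UTR of *Pkd2*. The genes were taken by name: every gene called Ccl, Cxcl, Cx3cl or Xcl with a number (ligands), Ccr, Cxcr, Cx3cr or Xcr with a number (receptors), and the atypical receptors *Ackr1* to *Ackr4*. This rule found 67 of the 54532 genes in the count table, under 62 symbols, of which 45 were ligands, 18 receptors and 4 atypical receptors. The rule uses names and no measured value.

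The 12 mice, labelled C57BL/6 and kept on a C57BL/6 J background per the study's methods, were 18 days old and formed 4 groups of 3, and every mouse carried the hypomorphic *Pkd1* allele RC. The noncystic groups were *Pkd1* RC/+ with *Pkd2* +/+ (mice 19, 20 and 21) or with *Pkd2* Δ17/Δ17 (mice 22, 23 and 24), where Δ17 is the allele that lacks the motif. The cystic groups were *Pkd1* RC/- with *Pkd2* +/+ (mice 25, 26 and 27) or with *Pkd2* Δ17/Δ17 (mice 28, 29 and 30). The second *Pkd1* allele was floxed in all 4 groups, and the + of the noncystic groups is that allele left whole for want of Cre. In the cystic mice it was removed by a Cre recombinase under the Ksp-cadherin promoter, which is active in kidney tubule cells, so chemokine-expressing cells outside the tubules kept it. The labels give separate mice, 1 kidney library each.

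Chemokines are small secreted proteins, tethered to the cell surface in the case of *Cx3cl1* and *Cxcl16*, that direct the movement of leukocytes by binding receptors coupled to G proteins. The ligands of *Ccr2*, among them *Ccl2*, *Ccl7* and *Ccl12*, bring monocytes out of the bone marrow and into tissue, while *Cx3cr1* and its ligand *Cx3cl1* hold resident macrophages and patrolling monocytes in place. *Cxcl12* acts through *Cxcr4* in the growth of kidney vessels and the retention of blood cell precursors, and the atypical receptors remove chemokines without signalling through G proteins. In kidneys with cysts, macrophages accumulate around the cysts, and *Ccl2* has been studied there as a monocyte attractant.

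The libraries held 18800307 to 24453033 reads on genes, of which 12929 to 19927 per mouse fell on the chemokine genes. Levels are given as CPM, reads scaled to a common library size after TMM scaling for library composition. The targeted gene, *Pkd2*, stood at 210 ± 13.9 CPM (SD, n = 3 mice) and 278 ± 7.68 CPM in the noncystic groups without and with the deletion, and at 226 ± 11.1 and 326 ± 16.7 CPM in the cystic groups. Proximal tubule markers were abundant in all 12 libraries, as the tissue label says. Markers of the adrenal gland summed to 61.9 CPM in mouse 27 and to 433 CPM in mouse 30, against 3.89 to 7.15 CPM in the other mice, and the calls that changed without these 2 libraries are given with the results.

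Reads were found for 56 of the 67 genes. The 11 without a read were all 3 copies of *Ccl21b*, both copies of *Ccl21a* and of *Ccl27*, *Ccl21c*, *Ccl27b*, *Ccl26* and the second copy of *Ccl19*. Except for *Ccl26*, these belong to families of similar copies, and how reads that match several copies were counted was not given, so their zeros are uncertain. In the same families *Ccl27a* had 3203 reads and the first copy of *Ccl19* had 10. A further 5 genes (*Cxcr1*, *Cxcl15*, *Ccr8*, *Ccl1* and *Ccr6*) had reads but an average level under -3 on the log2CPM scale and were not tested. The other 51 were tested: 32 ligands, 15 receptors and 4 atypical receptors. Of these, 18 had under 100 reads in all 12 mice together, and 21 were at 0 or more in average log2CPM. Exons of *Ackr1*, *Ackr4*, *Ccl25*, *Ccl27a*, *Ccr9*, *Cx3cr1*, *Cxcl10*, *Cxcl11*, *Cxcl16*, *Cxcr5* and *Xcl1* overlap those of another gene, and the strand setting of the counting was not given, so some of their reads may belong to the neighbour.

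Per kilobase of exon, 4 genes stood well above the rest. *Cxcl14*, a ligand made by epithelia, had a mean level of 66.0 CPM per kb over the 12 mice (range 42.1 to 111). *Cxcl12* followed with 40.3 CPM per kb (20.1 to 57.7), then the atypical receptor *Ackr3*, which scavenges *Cxcl12*, with 34.6 (23.3 to 47.9) and *Cx3cl1* with 28.3 (17.1 to 49.0). The ranges of these neighbours in the order overlapped. *Cxcl16* stood at 12.8 CPM per kb (9.14 to 20.5) and *Cxcr4*, the signalling receptor of *Cxcl12*, at 5.91 (3.70 to 7.20). Among receptors, *Cx3cr1* was next with 3.25 CPM per kb (1.09 to 7.05), while *Ccr2* stood at 0.689 (0.324 to 2.17) and *Ccl2* at 1.32 (0.288 to 5.38). The length used is that of all annotated exons of a gene merged, 8.176 kb for *Cxcl12* and 1.827 kb for *Cxcl14*, and the order depends on it. Without division by length *Cxcl12* stood above *Cxcl14*, at 164 to 472 against 77.0 to 203 CPM. Order in whole kidney says nothing of the level in the cells that make the RNA.

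**Figure D1:**
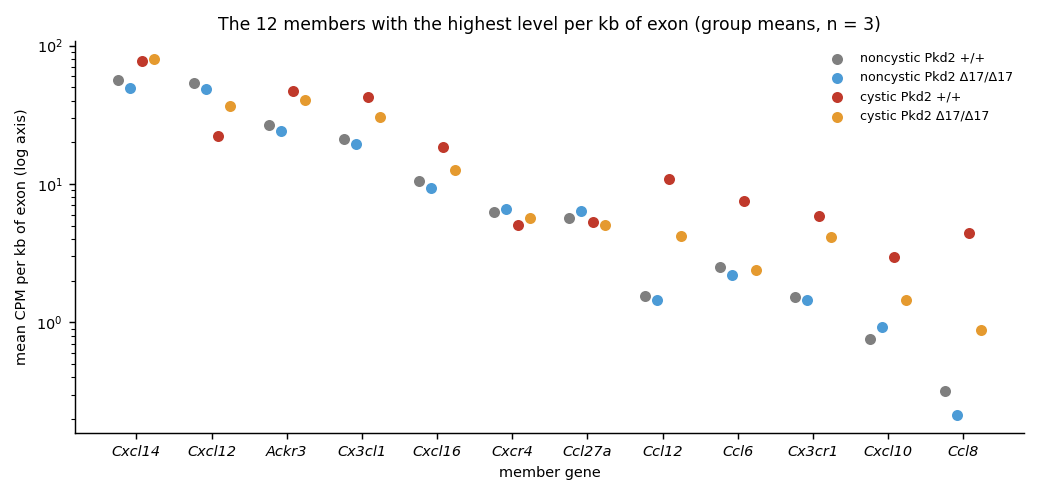
Mean CPM per kb of exon (vertical log axis) of the 12 genes with the highest level, from left to right in falling order of the mean over all 12 mice. Each point is the mean of 3 mice of one group, coloured by group. Cxcl12 is lowest in cystic Pkd2 +/+ kidneys (22.3 CPM per kb), whereas Ccl12 (10.8) and Ccl6 (7.54) are highest there.

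The first comparison, cystic against noncystic kidneys with unedited *Pkd2*, asks how the chemokine genes change with the disease. Of the 51 genes tested, 20 rose and 2 fell at an adjusted p under 0.05, while 31.1% of all 24642 genes passed in this comparison, 16.9% higher and 14.2% lower. The median log2 fold change of the 51 was 1.01, or 0.98 with *Cxcr2* at its counting bound and *Ccr3* left out, against 0.02 over all genes tested. Ligands rose in 15 of 32 cases and fell in 2, receptors rose in 4 of 15 and atypical receptors in 1 of 4. Among the 21 genes whose average log2CPM was 0 or more, 13 rose and 1 fell, beside 46.8% of all genes at that level that passed in either direction. The groups did not overlap for 27 of the 51, 24 higher and 3 lower, beside 41.7% of all genes, 22% higher and 19.7% lower. The count of chemokine genes past the threshold was 20 to 23 under every alternative run, and all 22 passed without mice 27 and 30. Over all genes, 6480 to 8829 passed under these alternatives, against 7665 in the fit reported. In bulk RNA, more cells of a type and more RNA per cell cannot be told apart, and this holds for every value that follows.

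The *Ccr2* ligands *Ccl2*, *Ccl12* and *Ccl7* rose steeply, as did their neighbour *Ccl8*. *Ccl2* (ENSMUSG00000035385), the main monocyte attractant, was measured at 0.467, 0.399 and 0.458 CPM in the noncystic *Pkd2* +/+ mice and at 2.79, 6.12 and 2.68 CPM in the cystic *Pkd2* +/+ mice. The groups were far apart, and mouse 26 had more than the other cystic mice. The log2 fold change was 3.10 (standard error, SE, 0.39, adjusted p = 1.06e-05, edgeR quasi-likelihood test). *Ccl12*, a second ligand of *Ccr2* found in mice, went from 0.467, 0.855 and 1.17 CPM to 3.72, 7.98 and 5.74 CPM, a log2 fold change of 2.79 (0.35, adjusted p = 1.2e-05). *Ccl7* rose by 3.45 (SE 0.55) and *Ccl8*, which attracts monocytes and T cells, by 3.77 (0.66) on the log2 scale, from 12 and 9 reads in the noncystic group to 158 and 148 reads in the cystic group.

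These 4 genes are neighbours. In GRCm38 they lie on the forward strand of chromosome 11, *Ccl2* at chr11:82035571-82037453, *Ccl7* at chr11:82045712-82047525, *Ccl12* at chr11:82101845-82103400 and *Ccl8* at chr11:82115185-82116799. *Ccl11*, an attractant of eosinophils, lies between *Ccl7* and *Ccl12* (chr11:82057823-82062955). It was at 1.19, 0.855 and 0.865 CPM in noncystic and at 1.16, 1.57 and 1.41 CPM in cystic *Pkd2* +/+ mice. These groups overlapped, and the log2 fold change of 0.50 (95% interval -0.26 to 1.25) did not pass (adjusted p = 0.288).

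A further group of Ccl genes lies downstream on the same chromosome. *Ccl6* and *Ccl9*, which macrophages express and which bind *Ccr1*, are next to each other on the reverse strand (chr11:83587882-83593087 and chr11:83572919-83578636). *Ccl6* went from 3.84, 5.70 and 3.97 CPM to 20.3, 9.35 and 10.9 CPM, and *Ccl9* from 2.08, 3.65 and 1.88 CPM to 11.2, 6.46 and 6.69 CPM. Both were highest in mouse 25 among the cystic mice, and neither overlapped between the groups. Their log2 fold changes were 1.59 (SE 0.37, adjusted p = 0.00296) and 1.69 (0.32, adjusted p = 0.00053). *Ccl5*, an attractant of T cells and monocytes, was within 0.407 to 0.513 CPM in noncystic and 1.18 to 2.01 CPM in cystic mice and rose by 1.71 (0.46). *Ccl3* and *Ccl4*, macrophage inflammatory proteins in the same stretch, did not pass, with 22 and 12 reads in the cystic group.

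Receptors of monocytes and macrophages rose with these ligands. *Ccr2* was at 2.91, 3.36 and 2.19 CPM in the noncystic and at 14.7, 9.01 and 6.64 CPM in the cystic *Pkd2* +/+ mice, a log2 fold change of 1.85 (SE 0.29, adjusted p = 8.84e-05). *Ccr1* went from 1.25, 1.54 and 1.12 CPM to 6.31, 5.87 and 7.06 CPM, by 2.30 (0.26, adjusted p = 3.33e-06). The cystic mice differed little among themselves for *Ccr1*, while for *Ccr2* mouse 25 stood far above mouse 27. *Cx3cr1* went from 8.83, 4.90 and 6.71 CPM to 19.3, 31.8 and 28.3 CPM, by 1.95 (0.23, adjusted p = 4.9e-06). None of these 3 receptors overlapped between the groups. *Ccr1* and *Ccr2* lie in one cluster on chromosome 9, together with *Ccr3*, which had 9 reads in all, while *Ccr9*, *Xcr1* and *Cxcr6* further along did not pass. *Cxcr6*, the receptor of *Cxcl16* on T and natural killer cells, was at 0.727, 0.741 and 0.763 CPM in noncystic and at 0.116, 0.343 and 0.471 CPM in cystic mice, with no overlap but a log2 fold change of -1.28 that did not pass (adjusted p = 0.134).

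The 2 membrane-bound ligands rose less on the log2 scale, from levels that were already high. *Cx3cl1*, the ligand of *Cx3cr1*, went from 77.2, 80.2 and 92.0 CPM to 135, 193 and 174 CPM, a log2 fold change of 1.01 (SE 0.14, adjusted p = 3.13e-05). *Cxcl16* went from 29.9, 31.0 and 34.7 CPM to 47.4, 62.1 and 58.4 CPM, by 0.81 (0.13, adjusted p = 8.98e-05). In both cases each cystic mouse was above each noncystic mouse.

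Ligands of neutrophil and T cell receptors were mixed. *Cxcl1*, which attracts neutrophils through *Cxcr2*, went from 0.883, 1.37 and 0.153 CPM to 3.37, 2.74 and 3.06 CPM, a log2 fold change of 1.94 (SE 0.47, adjusted p = 0.00413). The groups did not overlap, although mouse 21 was far below the other noncystic mice. *Cxcl5*, a ligand of the same receptor, went from 1 read to 31 reads in the group of 3 (ratio 25.9, 95% counting interval 4.32 to 1057), and *Ccl20*, the ligand of *Ccr6*, from 1 read to 38 reads (ratio 31.8, 5.37 to 1288). *Cxcr2* itself had 0 reads in the noncystic and 5 reads in the cystic group, at least 1.39-fold higher against a floor of 3 reads over the group, and *Ccr6* was not tested. Of 10 neutrophil markers, *Ly6g* and *Mpo* were too low to test, and the summed level of the list was 3.02 to 3.89 CPM in noncystic and 1.91 to 3.02 CPM in cystic mice.

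*Cxcl10* and *Cxcl11*, interferon-induced ligands of *Cxcr3* that lie next to each other on chromosome 5, differed in direction. *Cxcl10* went from 1.87, 1.60 and 1.68 CPM to 3.02, 11.3 and 5.84 CPM, a log2 fold change of 1.96 (SE 0.38, adjusted p = 0.000695), with mouse 26 highest and no overlap. *Cxcl11* fell from 1.09, 0.684 and 0.356 CPM to 0.194, 0.049 and 0.141 CPM, by 2.38 on the log2 scale (0.60, adjusted p = 0.00565), on 40 and 9 reads. *Cxcl9*, the third of these ligands, was at 0.356 to 0.684 CPM in noncystic and 0.619 to 0.979 CPM in cystic mice and did not pass (adjusted p = 0.455). The receptor *Cxcr3* did not pass either, at 0.104 to 0.570 and 0.271 to 0.659 CPM. *Ccl17*, a ligand of *Ccr4*, went from 0.467, 0.285 and 0.356 CPM to 1.39, 1.22 and 1.13 CPM, without overlap, and rose by 1.74 (0.38). *Ccl17* lies on chromosome 8 with *Ccl22* and *Cx3cl1*. *Cxcl17*, an attractant made by mucosal epithelia, rose by 3.09 (0.88) on 4 and 44 reads.

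*Cxcl12* was the abundant ligand that fell. It lies on the forward strand of chromosome 6 (chr6:117168535-117181367). It was at 415, 438 and 472 CPM in noncystic *Pkd2* +/+ mice and at 166, 216 and 164 CPM in cystic *Pkd2* +/+ mice. The highest cystic mouse was below every noncystic mouse, and the log2 fold change was -1.28 (SE 0.11, adjusted p = 2.04e-07). Its scavenger *Ackr3* moved the other way, from 92.2, 96.0 and 81.8 CPM to 160, 154 and 154 CPM, a log2 fold change of 0.80 (0.09, adjusted p = 2.36e-06). *Cxcr4*, its signalling receptor, was at 12.1, 12.5 and 9.51 CPM and at 10.5, 8.86 and 8.05 CPM, groups that overlapped, with a log2 fold change of -0.31 (95% interval -0.77 to 0.14) that did not pass.

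Chemokines and receptors of lymphoid tissue were low. *Ccl19*, a ligand of *Ccr7*, had 10 reads in all 12 mice, and *Ccr7* itself was at 0.153 to 0.570 CPM in noncystic and 0.565 to 1.35 CPM in cystic *Pkd2* +/+ mice (adjusted p = 0.14). *Cxcl13*, which gathers B cells, was at 0.0519 to 0.407 and 0.194 to 0.441 CPM, and its receptor *Cxcr5* at 0.0519 to 0.102 and 0.0979 to 0.235 CPM. The epithelial ligands *Ccl25* (6.80 to 8.65 and 4.99 to 8.21 CPM) and *Ccl27a* (12.4 to 15.4 and 11.8 to 13.4 CPM) overlapped between the groups, as did *Ccl28* (1.48 to 4.78 and 0.979 to 6.92 CPM) and its receptor *Ccr10* (0.865 to 1.25 and 0.734 to 0.942 CPM). None of these 8 genes passed. Of the other atypical receptors, *Ackr2*, which clears inflammatory Ccl ligands, was at 0.814 to 1.40 and 1.43 to 1.91 CPM, with a log2 fold change of 0.64 (95% interval -0.07 to 1.36) that did not pass, and *Ackr1* and *Ackr4* overlapped between the groups.

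Markers of other cells moved in this comparison, where 16.9% of all genes rose and 14.2% fell. Of 14 macrophage and monocyte markers, 12 rose and 1 (*Mertk*) fell, and their summed level was 264 to 279 CPM in noncystic and 540 to 723 CPM in cystic *Pkd2* +/+ mice. Blood endothelium markers, of cells that also express *Cxcl12* and *Ackr3*, fell in 7 of 10 cases, from a sum of 912 to 1024 CPM to 643 to 707 CPM. Proximal tubule markers fell in 8 of 8 cases, from 7521 to 9237 CPM to 2852 to 3969 CPM. Markers of podocytes (5 of 6), of thick ascending limb and distal tubule (5 of 7) and of fat tissue (4 of 4, from a sum of 185 to 470 CPM to 38.5 to 88.9 CPM) also fell. Of 8 collecting duct markers 3 rose and 2 fell, with sums of 1255 to 1395 and of 1820 to 3394 CPM, the highest in mouse 25. Of 6 lymphatic markers 2 rose and 2 fell. Their sum went from 74.6 to 84.6 CPM to 125 to 161 CPM with *Pdpn*, which is not particular to lymphatic cells and was at 19.7 to 20.2 and 90.5 to 110 CPM, while *Prox1* and *Reln* fell. Fibroblast markers, 3 of 8 higher and 2 lower, summed to 1440 to 1588 and to 2141 to 3196 CPM. T cell markers summed to 9.18 to 12.7 and to 9.76 to 13.0 CPM, with 4 of 10 higher and 1 lower. The part of these markers in the chemokine results was not tested.

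**Figure D2:**
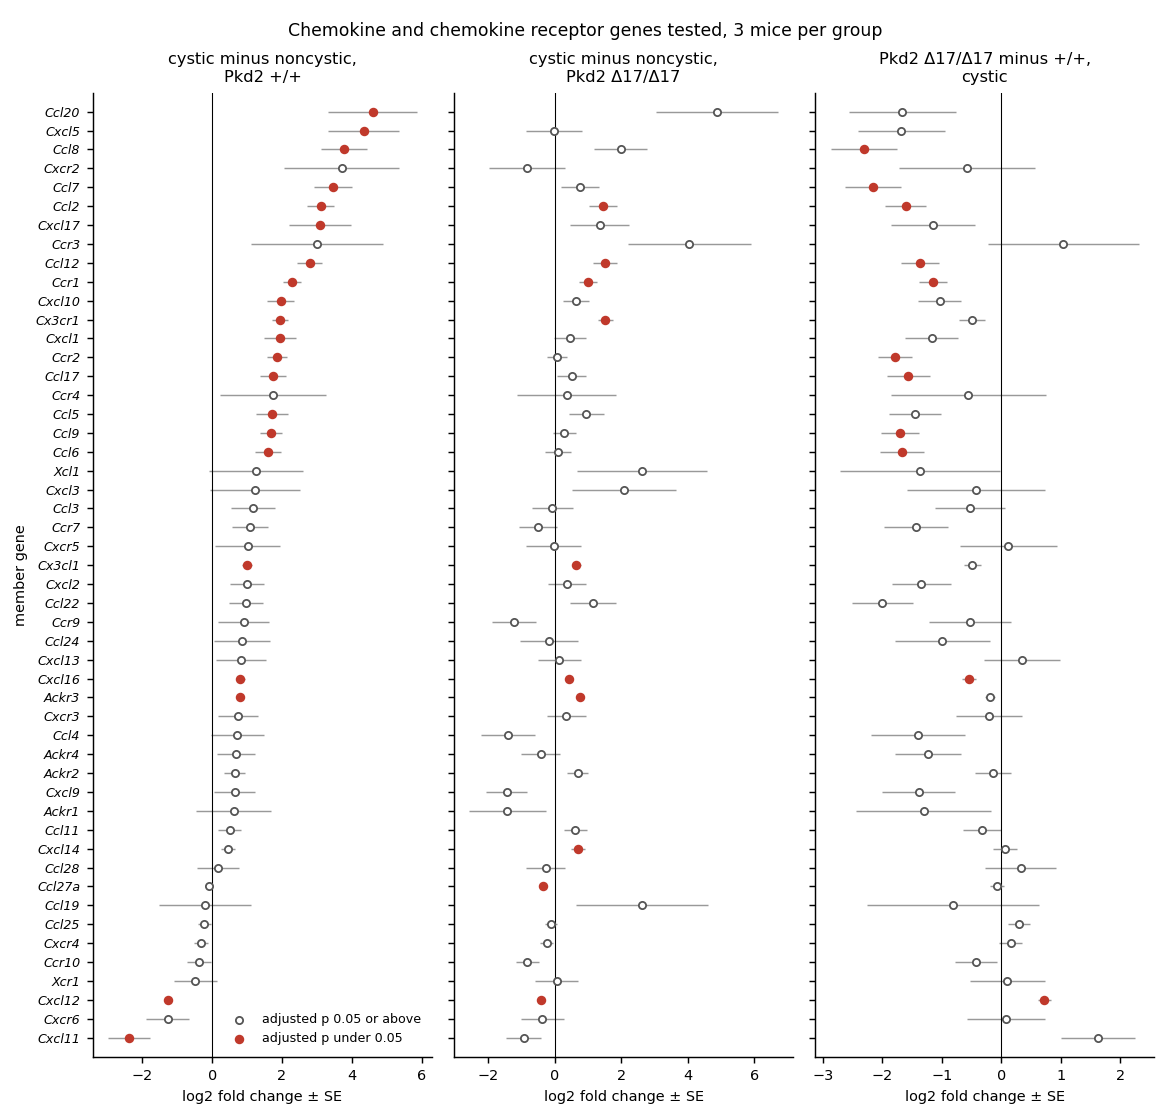
Log2 fold changes with standard errors (horizontal axes) of 50 of the 51 genes tested, ordered by the first panel, for cystic minus noncystic kidneys with Pkd2 +/+, the same with Pkd2 Δ17/Δ17, and Pkd2 Δ17/Δ17 minus +/+ in cystic kidneys. Filled points passed an adjusted p of 0.05 (21, 10 and 11 of those drawn), open points did not, and the panels have different horizontal scales. Values of genes with few reads (Ccl20, Cxcl5, Cxcr2, Ccr3, Xcl1 and Ccl19) depend on the fit and have wide errors.

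Promoter sequence was available from RefSeq (GRCm38.p6), from 250 bases before to 50 bases after the start of transcription, for 45 of the 62 symbols. The symbols without an entry included *Cxcl16*, *Ccr7*, *Ccl7*, *Ccl4*, *Ccl24*, *Cxcr5*, *Cxcl11*, *Ccl21c*, *Ccl5*, *Ccl11*, *Ccl2*, *Ccl27*, *Ccl26*, *Cxcl5*, *Cxcl17* and *Ccr10*. Motifs were searched on both strands: the consensus of NF-kB, a factor activated by inflammatory cytokines; the interferon-stimulated response element, as 2 copies of GAAA with 2 bases between them; AP-1, as TGANTCA; and PU.1, a factor of myeloid cells, as GAGGAAG. The NF-kB consensus was found in 12 of the 45 symbols (26.7%) and in 9.55% of the 27025 symbols in the whole table. Of the 20 genes that rose in cystic *Pkd2* +/+ kidneys 13 had a promoter entry, and 5 of these held the consensus. The interferon element was found in 3 of 45 (6.67%; 3.99% of all symbols), AP-1 in 8 (17.8%; 8.97%) and PU.1 in 8 (17.8%; 15.4%). A match describes the letters and not a bound site.

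The windows below show the NF-kB match, in capitals, in those 5 genes, with the interferon element of *Cxcl10* as the last line. They are RefSeq sequence on the strand of the gene, each 30 bases long and wholly before the start of transcription. Positions are chr5:90891164-90891193 (forward) for *Cxcl1*, chr5:92348974-92349003 (reverse) for *Cxcl10*, chr1:83116676-83116705 (forward) for *Ccl20*, chr11:83578652-83578681 (reverse) for *Ccl9*, chr9:123968747-123968776 (reverse) for *Ccr1*, and chr5:92349083-92349112 (reverse) for the interferon element. *Cxcl10* held a further NF-kB match at a separate place, and in *Cxcl1* and *Cxcl10* a second match overlapped the one shown by all but 1 base.
Cxcl1: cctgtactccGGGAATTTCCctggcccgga
Cxcl10: tcggtttacaGGGGACTTCCctcgggttgc
Ccl20: aatcaatgggGGAAAACCCCgggtgagaac
Ccl9: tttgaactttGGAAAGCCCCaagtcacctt
Ccr1: ctttagaaggGGGAGGCTCCtcactgacca
Cxcl10, interferon element: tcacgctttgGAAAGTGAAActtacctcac

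The neighbours *Cxcl2* and *Cxcl3*, which share the receptor *Cxcr2* with *Cxcl1*, also held the consensus, but neither passed in this comparison (adjusted p = 0.142 and 0.529). Their reads were few, 29 and 3 in noncystic and 69 and 9 in cystic *Pkd2* +/+ mice. The other 8 genes with an entry that rose, *Ccl6*, *Ccl8*, *Ccl12*, *Ccl17*, *Ccr2*, *Cx3cr1*, *Cx3cl1* and *Ackr3*, had no match to it in this window.

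The second comparison asks how the chemokine genes differ between cystic kidneys without and with the deletion of the miR-17 motif of *Pkd2*. The study reported milder disease with the deletion: lower kidney weight relative to body weight, lower serum creatinine, and less cyst proliferation and interstitial inflammation. The groups thus differ in severity as well as in genotype, and the part of severity in the values below was not tested. Of the 51 genes, 10 fell and 1 rose at an adjusted p under 0.05, while 2.23% of all genes passed, 1.04% lower and 1.19% higher. The 10 were the ligands *Ccl2*, *Ccl7*, *Ccl8*, *Ccl12*, *Ccl6*, *Ccl9*, *Ccl17* and *Cxcl16* and the receptors *Ccr1* and *Ccr2*, and the 1 that rose was *Cxcl12*. At an unadjusted p under 0.05 there were 25, beside 14.3% of all genes. The median log2 fold change was -0.81, against 0.00075 over all genes, and 40 of the 51 values were below 0. Among the 21 genes whose average log2CPM was 0 or more, 8 passed, 1 of them higher, beside 3.50% of all genes at that level. The groups did not overlap for 19 genes that were lower and 2 that were higher, beside 10.2% and 8.79% of all genes, 19% in all. This comparison shares the cystic *Pkd2* +/+ mice with the first, so a chance high value there enters both, and the fall of genes that rose in the first is not independent of it.

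The count in cystic kidneys changed with the mouse left out, as did the count over all genes. For the chemokine genes it was 2 without mouse 28 and 2 without mouse 29 (*Ccr2* and *Cxcl12* in both cases), 4 without mouse 27, 5 without mouse 26, 11 without mouse 25 and 13 without mouse 30. When only the cystic mice were fitted it was 4. Over all genes, 549 passed in the fit reported, against 127 without mouse 28, 118 without mouse 29 and 130 without mouse 27. The count over all genes was 399 without mouse 26, 861 without mouse 25, 759 without mouse 30 and 167 with only the cystic mice. Without both mice with adrenal RNA 7 chemokine genes passed, beside 322 of all genes. *Ccr1* (adjusted p = 0.0557), *Ccl12* (0.0614), *Ccl8* (0.108), *Ccl7* (0.109) and *Ccl17* (0.109) did not pass there, with log2 fold changes of -2.66 to -1.26. In all of these fits the 11 genes kept their direction.

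*Ccr2* had the smallest adjusted p among the genes that fell. Its level was 14.7, 9.01 and 6.64 CPM in cystic *Pkd2* +/+ mice and 2.5, 2.35 and 3.94 CPM in cystic *Pkd2* Δ17/Δ17 mice. Each mouse with the deletion was below each mouse without it, with a log2 fold change of -1.79 (SE 0.28, adjusted p = 0.00415), which ran from -2.29 to -1.41 over the alternatives and passed in all of them. The level in cystic mice with the deletion overlapped that of noncystic mice, which was 3.05, 2.29 and 2.97 CPM with the deletion and 2.19 to 3.36 CPM without it. The difference between cystic and noncystic *Pkd2* Δ17/Δ17 kidneys was 0.08 on the log2 scale, with a 95% interval of -0.61 to 0.77.

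The *Ccr2* ligands *Ccl2*, *Ccl12* and *Ccl7* fell as well, as did their neighbour *Ccl8*. *Ccl2* was at 2.79, 6.12 and 2.68 CPM without and at 1.01, 1.17 and 1.59 CPM with the deletion, a log2 fold change of -1.61 (SE 0.34, adjusted p = 0.0211). *Ccl12* went from 3.72, 7.98 and 5.74 CPM to 1.92, 1.81 and 2.98 CPM, by -1.37 (0.32, adjusted p = 0.0322). Mice with the deletion were below all mice without it for both genes and above all noncystic mice. *Ccl7* went from 1.51, 2.94 and 2.78 CPM to 0.288, 0.636 and 0.673 CPM, by -2.16 (0.47, adjusted p = 0.0259). *Ccl8* went from 1.16, 2.94 and 2.73 CPM to 0.144, 0.489 and 0.721 CPM, by -2.31 (0.56, adjusted p = 0.0402). For *Ccl7* and *Ccl8*, on 33 and 28 reads in the deletion group, the levels also did not overlap between the cystic groups.

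*Ccl6* and *Ccl9* fell to levels that overlapped those of noncystic kidneys. *Ccl6* went from 20.3, 9.35 and 10.9 CPM to 2.12, 3.18 and 7.46 CPM, a log2 fold change of -1.67 (SE 0.37, adjusted p = 0.0261), with mouse 30 highest in the deletion group. *Ccl9* went from 11.2, 6.46 and 6.69 CPM to 1.83, 2.15 and 3.51 CPM, by -1.70 (0.32, adjusted p = 0.0111). Their shared receptor *Ccr1* went from 6.31, 5.87 and 7.06 CPM to 3.12, 1.96 and 3.56 CPM, by -1.15 (0.24, adjusted p = 0.0189). All 3 genes were lower in every mouse with the deletion than in any mouse without it. Against noncystic mice with the deletion, the cystic mice with it differed by -0.78 to 0.99 for *Ccl6* and by -0.49 to 1.07 for *Ccl9* (95% intervals, log2 scale). *Ccr1* stayed above the noncystic range of 1.12 to 1.80 CPM in each mouse.

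*Ccl17*, a ligand of *Ccr4* that dendritic cells make, went from 1.39, 1.22 and 1.13 CPM to 0.433, 0.342 and 0.481 CPM, a log2 fold change of -1.56 (SE 0.37, adjusted p = 0.0336). It did not pass when any single cystic mouse was left out (adjusted p 0.0519 to 0.158). With *Xist* as a covariate (0.0605) and with the cystic groups alone (0.0758) it did not pass either. *Cxcl16* went from 47.4, 62.1 and 58.4 CPM to 32.4, 35.8 and 46.7 CPM, by -0.55 (0.12, adjusted p = 0.0312). Neither overlapped between the cystic groups, though for *Cxcl16* the gap between mouse 25 and mouse 30 was small. *Ccl22*, the other ligand of *Ccr4* and a neighbour of *Ccl17* on chromosome 8, missed the threshold at 1.55, 1.08 and 0.895 CPM against 0.192, 0.245 and 0.433 CPM (log2 fold change -2.00, adjusted p = 0.0555). It passed with DESeq2, with limma-trend, with filterByExpr, without a filter and without mouse 30.

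*Cxcl12* was at 166, 216 and 164 CPM in the cystic *Pkd2* +/+ mice and at 322, 304 and 274 CPM in the cystic *Pkd2* Δ17/Δ17 mice. The groups did not overlap, and the log2 fold change of 0.72 (SE 0.11, adjusted p = 0.00281) ran from 0.65 to 0.86 over the alternatives and passed in all of them. All 3 mice with the deletion stayed below the noncystic range of 371 to 472 CPM. *Ackr3* was at 160, 154 and 154 CPM without and 124, 130 and 154 CPM with the deletion and did not pass (log2 fold change -0.20, adjusted p = 0.284). *Cxcr4* was at 6.68, 11.4 and 12.5 CPM with the deletion, a range that held all 3 values without it.

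**Figure D3:**
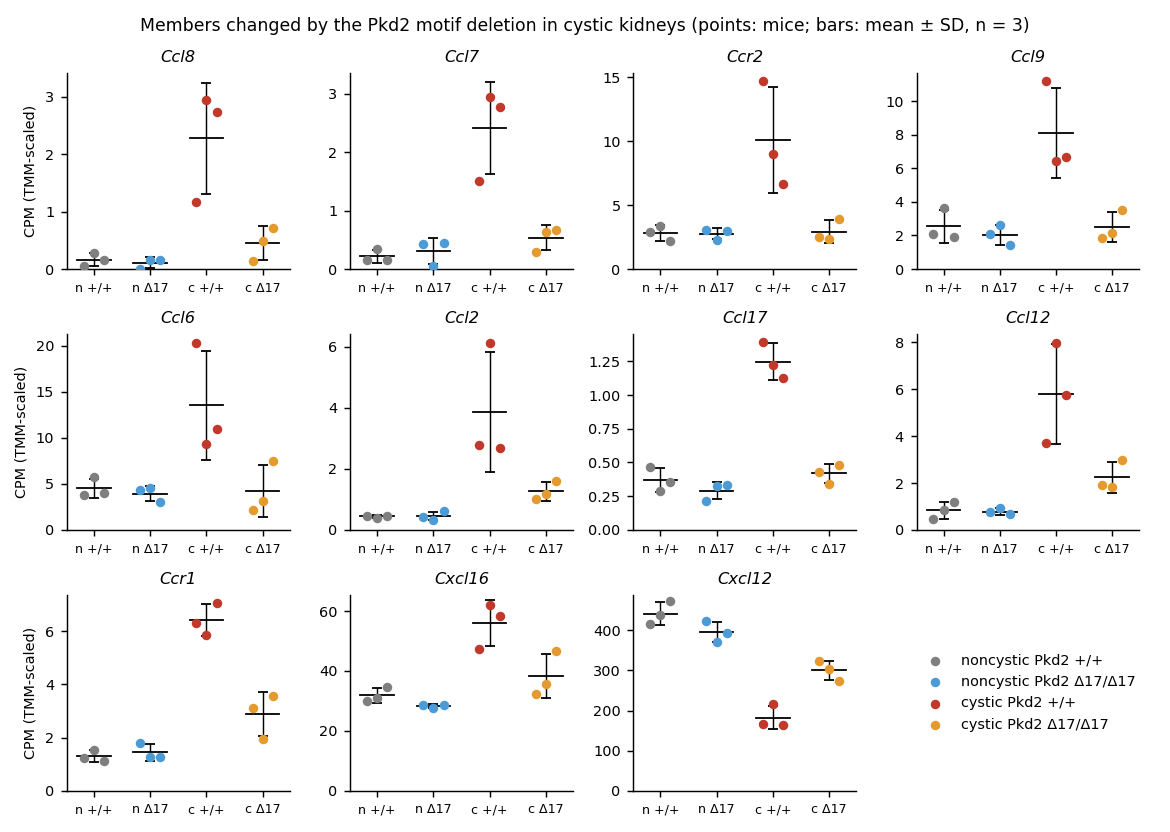
CPM (vertical axes, from 0) of the 11 genes that passed for the deletion in cystic kidneys, in noncystic (n) and cystic (c) mice with Pkd2 +/+ or Δ17/Δ17. Points are mice, bars the mean and SD of 3 mice. For the 10 genes that fell, the cystic Pkd2 +/+ mice are above all mice of the other cystic group, and for Cxcl12 they are below them.

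*Cx3cr1* behaved unlike *Ccr2*. It was at 19.3, 31.8 and 28.3 CPM in cystic *Pkd2* +/+ mice and at 15.3, 17.9 and 23 CPM in cystic *Pkd2* Δ17/Δ17 mice. These groups overlapped, and the log2 fold change of -0.49 (95% interval -0.98 to -0.01) did not pass after adjustment (adjusted p = 0.287). Among the alternatives it passed only without a filter on low counts (0.0139). The ratio of *Ccr2* to *Cx3cr1* reads was 0.760, 0.284 and 0.234 in the cystic mice without and 0.163, 0.131 and 0.171 in those with the deletion, and 0.326 to 0.686 in the noncystic mice. All 3 cystic mice with the deletion had a lower ratio than any other mouse, while mouse 25 had the highest. The difference between the genes was looked for after their values were known and is given without a test. The ligand *Cx3cl1* was at 100, 113 and 144 CPM with the deletion, which overlapped the 135 to 193 CPM without it, and did not pass (log2 fold change -0.49, adjusted p = 0.0824). It did pass with DESeq2 (0.0242), with *Xist* as a covariate (0.0287) and without a filter (3.03e-06). Leaving out mouse 25 (0.0110) or mouse 30 (0.0178) also made *Cx3cl1* pass.

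**Figure D4:**
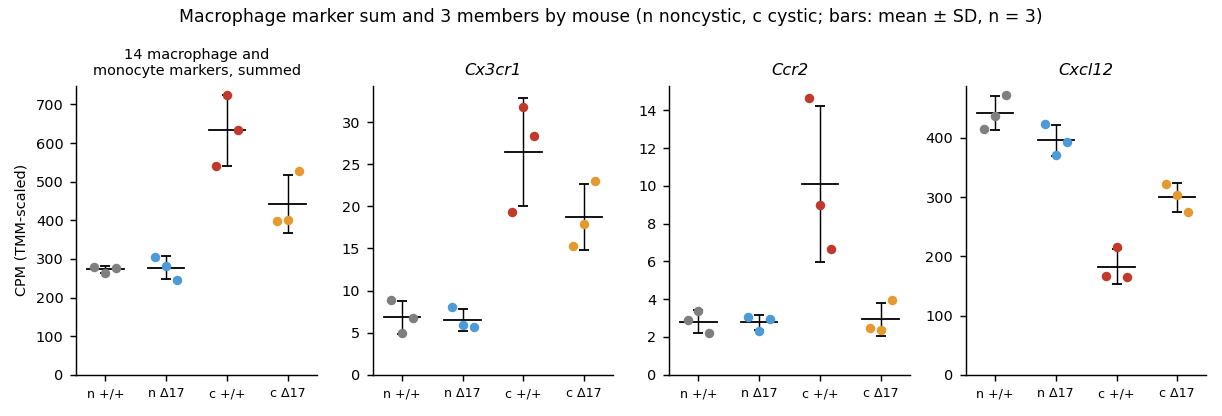
Summed CPM of 14 macrophage and monocyte markers and CPM of Cx3cr1, Ccr2 and Cxcl12 (vertical axes, from 0) by group, with n for noncystic and c for cystic. Points are mice, bars the mean and SD of 3 mice. In cystic Pkd2 Δ17/Δ17 mice the marker sum (397 to 528) and Cx3cr1 (15.3 to 23) are above the noncystic mice, while Ccr2 (2.35 to 3.94) overlaps them.

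Other genes with a fall in this comparison did not pass. *Cxcl10* was at 3.02, 11.3 and 5.84 CPM without and at 4.09, 2.84 and 2.84 CPM with the deletion (log2 fold change -1.04, adjusted p = 0.162), and *Cxcl1* at 3.37, 2.74 and 3.06 CPM against 0.817, 1.12 and 2.12 CPM (-1.17, adjusted p = 0.211). *Cxcl10* overlapped between the groups and *Cxcl1* did not. *Ccl5*, *Cxcl2*, *Ccr7*, *Cxcl9* and *Ccl4* were also lower without overlap, with log2 fold changes of -1.45 to -1.34 and adjusted p of 0.106 to 0.462. Without a filter on low counts *Cxcl10*, *Cxcl1* and *Ccl5* passed, and *Cxcl10* also passed without mouse 25.

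Of the 14 macrophage and monocyte markers, 5 fell, among them *C1qa* (log2 fold change -0.92), and *Mertk* rose (0.48) in this comparison. Their summed level was 540, 723 and 635 CPM in cystic *Pkd2* +/+ and 397, 402 and 528 CPM in cystic *Pkd2* Δ17/Δ17 mice, groups that did not overlap. Dendritic cell markers fell in 2 of 8 cases (*Cd209a* and *Itgax*), with sums of 30.5 to 32.3 and 24.8 to 30.2 CPM. Natural killer cell markers summed to 1.27 to 2.55 and 0.538 to 1.06 CPM, T cell markers to 9.76 to 13.0 and 9.34 to 9.96 CPM, and B cell markers to 12.7 to 18.7 and 12.5 to 14.5 CPM. Markers of blood endothelium, of which 1 of 10 rose (*Tek*), summed to 643 to 707 and to 682 to 834 CPM. Proximal tubule markers rose in 3 of 8 cases, from 2852 to 3969 CPM to 3801 to 5184 CPM. Collecting duct markers fell in 1 of 8 cases (*Gata3*), with sums of 1820 to 3394 and 1524 to 2224 CPM. Over all genes, 1.19% rose and 1.04% fell in this comparison. The part of these markers in the fall of the chemokine genes and the rise of *Cxcl12* was not tested.

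In noncystic kidneys, the same deletion gave no chemokine gene past the threshold by edgeR or by DESeq2, beside 1 gene (0.00406%) and 3 genes (0.0122%) of all. At an unadjusted p under 0.05 there were 4 of the 51 (*Ccl22*, *Ccr9*, *Cxcl5* and *Cxcr2*), beside 6.31% of all genes, a share near theirs, and the smallest adjusted p was 0.771. The median log2 fold change of the 51 was 0.01, with 26 values above and 24 below 0. The groups did not overlap for 2 genes that were higher and 5 that were lower, beside 5.69% and 5.09% of all genes, 10.8% in all. *Ccr2* differed by -0.02 (95% interval -0.72 to 0.68), *Ccl2* by 0.04 (-1.03 to 1.12) and *Cxcl12* by -0.16 (-0.40 to 0.09) on the log2 scale. In the noncystic mice with the deletion, *Ccl2* was at 0.436, 0.327 and 0.605 CPM, *Ccl12* at 0.763, 0.927 and 0.660 CPM, *Ccl7* at 0.436, 0.0545 and 0.440 CPM and *Ccl8* at 0, 0.164 and 0.165 CPM. *Ccl6* was at 4.30, 4.53 and 3.03 CPM, *Ccl9* at 2.07, 2.62 and 1.43 CPM, *Ccl17* at 0.218, 0.327 and 0.330 CPM and *Ccr1* at 1.80, 1.25 and 1.27 CPM. These 8 genes overlapped between the noncystic groups, as did *Cxcl12* at 423, 371 and 393 CPM, whereas *Cxcl16* at 28.8, 27.6 and 28.7 CPM was below all 3 mice without the deletion (log2 fold change -0.17, adjusted p = 0.818). *Ccl22* was at 1.04, 0.456 and 0.305 CPM without and at 0.218, 0.0545 and 0.110 CPM with the deletion. It was lower in each mouse with the deletion than in any noncystic mouse without it, on 34 and 7 reads.

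Whether the deletion acted differently in cystic and noncystic kidneys was tested as the interaction. No chemokine gene passed by edgeR, beside 0.0122% of all genes (0.00812% positive and 0.00406% negative), and 15 had an unadjusted p under 0.05, beside 8.33%. *Cxcl12* came closest, with a difference of 0.88 on the log2 scale (SE 0.15, adjusted p = 0.0552, 8.13e-08 to 0.189 over the alternatives). It passed with library totals (adjusted p = 0.0387), with limma-trend, also on library totals (0.0338), with DESeq2 (6.57e-05) and without a filter on low counts. For *Ccr2* the difference was -1.77 (0.41, adjusted p = 0.178, 3.49e-05 to 0.473 over the alternatives), and it passed with DESeq2 (0.0108), without a filter (3.49e-05) and without mice 27 and 30 (0.0382). DESeq2 called these 2 genes, beside 0.91% of the 15054 genes to which it gave an adjusted p. For *Ccr1* the difference was -1.30 (0.37, adjusted p = 0.301), and *Ccl6* (6.93e-05), *Ccl9* (0.00997), *Ccl7* and *Cxcl10* passed without a filter and in no other setting. Whether the fall of *Ccr2* and the rise of *Cxcl12* differ between cystic and noncystic kidneys thus depended on the test, the filter and the mice used.

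Between cystic and noncystic kidneys that both lacked the motif, 9 chemokine genes rose and 2 fell, beside 23% of all genes, 12.8% higher and 10.2% lower. Those that rose included *Ackr3*, *Cx3cl1*, *Cx3cr1*, *Ccr1*, *Cxcl16*, *Ccl2*, *Ccl12* and *Cxcl14*, and those that fell were *Cxcl12* and *Ccl27a*. The median log2 fold change of the 51 genes was 0.36, or 0.35 with genes at their counting bound, against -0.0032 over all genes. Among the 21 genes whose average log2CPM was 0 or more, 11 passed, beside 35.6% of all genes at that level. The groups did not overlap for 11 of the 51 that were higher and 4 that were lower, beside 20.2% and 17.7% of all genes, 37.9% in all. The count was 7 without mouse 22, 6 without mouse 23 and 5 without mouse 30, and 3 (*Ackr3*, *Cx3cl1* and *Cx3cr1*) without both mice with adrenal RNA. Over all genes, 5679 passed in the fit reported, against 4891, 4779, 4422 and 4165 in these fits, in the same order. With library totals in place of TMM, which moved the median of all genes in this comparison to 0.15, *Cxcl12* and *Ccl27a* did not pass.

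In this comparison *Cx3cr1* went from 8.06, 5.89 and 5.61 CPM to 15.3, 17.9 and 23 CPM, a log2 fold change of 1.52 (SE 0.23, adjusted p = 0.00011). *Ackr3* went from 82.7, 78.2 and 82.0 CPM to 124, 130 and 154 CPM, by 0.75 (0.09, adjusted p = 1.09e-05), and *Cx3cl1* from 67.2, 74.0 and 86.5 CPM to 100, 113 and 144 CPM, by 0.65 (0.14, adjusted p = 0.00259). These 3 genes, without overlap here, rose in cystic kidneys with either *Pkd2* genotype. *Cxcl14* went from 99.4, 77.0 and 95.5 CPM to 150, 144 and 148 CPM, by 0.70 (0.20, adjusted p = 0.0183), whereas with unedited *Pkd2* it was at 91.5, 120 and 97.3 CPM and at 87.6, 203 and 133 CPM and did not pass (log2 fold change 0.45, adjusted p = 0.106). Its spread was wide among the cystic *Pkd2* +/+ mice and narrow among those with the deletion.

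Side by side, the log2 fold changes between cystic and noncystic kidneys were 3.10 and 1.45 for *Ccl2*, 2.79 and 1.51 for *Ccl12* and 2.30 and 1.0 for *Ccr1*, with unedited *Pkd2* first and the deletion second. For *Ccr2* they were 1.85 and 0.08, for *Ccl6* 1.59 and 0.10 and for *Ccl9* 1.69 and 0.29, and the second value did not pass in these 3 cases. For *Cxcl12* they were -1.28 and -0.40, and the fall with the deletion passed (adjusted p = 0.0105). This fall did not pass with library totals (0.0719) or limma-trend (0.0634), without mouse 30 (0.0584) or without mice 27 and 30 (0.0590). The difference between the 2 values of a gene was tested as the interaction, which none of these genes passed in the fit reported. Interaction values for *Cxcl12*, *Ccr2* and *Ccr1* are given above. Over all edgeR, DESeq2 and limma fits, its adjusted p ran from 0.148 to 0.739 for *Ccl2* and from 0.179 to 0.796 for *Ccl12*. For *Ccl6* it ran from 6.93e-05 to 0.749 and for *Ccl9* from 0.00997 to 0.738, and both passed only without a filter.

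Other genes of the chemokine system were read from 4 lists. Of 11 tested genes that act with chemokines but fall outside the naming rule, 5 rose and 3 fell in cystic *Pkd2* +/+ kidneys, where 16.9% of all genes rose and 14.2% fell. The platelet chemokine *Pf4* rose by 1.77 (SE 0.19) and *Gpr35* by 1.74 (0.43) on the log2 scale, while the atypical receptors *Ccrl2* (-0.84) and *Gpr182* (-0.76) fell. The deletion, which lowered 1.04% of all genes in cystic kidneys, lowered 1 of the 11, *Cd74*, the receptor of *Mif* and the invariant chain of MHC class II, by 1.34 (log2 fold change -1.34, adjusted p = 0.00146). Of 30 genes of receptor signalling, 16 rose and 1 (*Rgs2*) fell in cystic *Pkd2* +/+ kidneys, with *Pik3r5* (1.95) and *Dock2* (1.92), which leukocytes use for movement, at the top. The deletion lowered 4 of the 30 in cystic kidneys, among them the leukocyte gene *Rac2* (-0.95).

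Among 18 tested genes for cleavage of chemokines and for the glycosaminoglycans that bind them, 11 rose and 3 fell in cystic *Pkd2* +/+ kidneys. Over all genes, 16.9% rose and 14.2% fell in that comparison. *Mmp12*, an elastase of macrophages that cuts chemokines, rose by 2.65 (SE 0.48), and *Mmp9* (-2.66) and *Dpp4* (-0.56), which trims the ends of *Cxcl12* and *Cxcl10*, fell. *Mmp12* was the 1 gene of this list that the deletion lowered in cystic kidneys, by -2.61 on the log2 scale (0.47, adjusted p = 0.00907). Of 22 tested genes of cytokines, cytokine receptors and NF-kB signalling, 13 rose in cystic *Pkd2* +/+ kidneys, among them *Il1r1* (2.12) and *Tnf* (2.04). The deletion lowered 4 of the 22 in cystic kidneys, beside 1.04% of all genes, with *Il33* (-0.93) and *Il1r1* (-0.59) among them.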

How the data were processed

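Whole kidneys of 12 mice were profiled by RNA-seq. The authors trimmed reads with Trim Galore 0.6.3, aligned them to GRCm38 with STAR 2.5.3a and deposited the raw counts of reads on each gene, whole numbers without normalization. Strand use in counting was not given in the sources used here. Genes without a name (343) held 0.0225% of the reads. Exons and coordinates came from GENCODE M21, which held all 67 members.

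Genes averaging -3 or more in log2CPM (prior count 2) were kept, the cutoff of the study's methods. Counts were tested in R 4.3.3 with the quasi-likelihood test of edgeR 4.0.16 (TMM, one mean per group, 8 residual degrees of freedom). P-values were adjusted by Benjamini-Hochberg over all 24642 genes and a threshold of 0.05. Every adjusted p is from this test unless another tool is named. The script was tested on simulated data. Alternatives were library totals, DESeq2 1.42.0 (size factors or Wald test), limma-trend (limma 3.58.1), no filter and filterByExpr. Further ones were *Xist* as a covariate, the compared groups alone and leaving out each mouse. Limma-trend was run on library totals without TMM, so it shares its scaling with the library totals setting. Leaving out both mice with adrenal RNA was added after the data were seen. Replicates of a group differed by 8.88 to 24.3 times the counting variance, so none was a repeated library. Intervals on reads are exact, at 95%, and cover counting error only.

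The members and lists were chosen with earlier results of these data known. Values in every mouse are given for members that passed in a deletion contrast, the 10 largest rises and the falls in cystic *Pkd2* +/+ kidneys among members at 0 or more in average log2CPM, the most abundant members and a set of ligand and receptor pairs. One member and a gene of the signalling list enter the fits and counts but are not reported here by themselves.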

Additional observations from a re-analysis of the deposited data

How the results depend on the processing

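Between cystic and noncystic *Pkd2* +/+ kidneys, the number of chemokine genes that passed ran from 22 to 23 without each mouse and from 20 to 23 over the other settings. For the deletion in cystic kidneys it was 2 to 13 without each mouse, 4 with the cystic groups alone, 18 without a filter and 7 without mice 27 and 30. Over all genes, 118 to 861 passed without each mouse, 167 with the cystic groups alone and 322 without mice 27 and 30. For cystic against noncystic kidneys with the deletion, the number of chemokine genes was 5 to 12 without each mouse and 3 without mice 27 and 30. Over all genes it was 4422 to 4952 and 4165 in these fits, against 5679 in the fit reported. For the interaction, 0 became 1 with library totals, 1 with limma-trend, 2 with DESeq2, 6 without a filter and 1 without mice 27 and 30 (*Ccr2*, adjusted p = 0.0382), and 0 to 1 without each mouse, the 1 being reached without mouse 25, 26 or 30. The causes were not tested, beyond fewer mice or other genes tested. For the deletion in noncystic kidneys it was 0 in every setting. Without a filter, 1639 and 566 genes in all passed for the deletion in cystic kidneys and the interaction, against 549 and 3. DESeq2 called 1090 and 137. With library totals, genes in all that passed between cystic and noncystic *Pkd2* +/+ kidneys were higher in 71.7% of cases, against 54.4% with TMM, and the median of all genes was 0.18. No paired analysis was possible because no mouse number is shared between groups.

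Of 1133 values of single genes under an alternative, 995 kept their direction and side of the threshold. Another 85 passed in the fit reported but not under the alternative, and 30 the other way round. The remaining 23, none of them past the threshold in the fit reported, changed sign. The values belong to 73 results, and results that did not pass were left out for genes under 0 in average log2CPM. Between cystic and noncystic *Pkd2* +/+ kidneys, *Ccl27a* was at 0.063 with library totals and at 0.067 with limma-trend, which also used library totals. *Ccl27a* ran from -0.17 to 0.0070 without each mouse. *Ccl28* ran from -0.42 to 0.62 without each mouse and was at -0.42 without mice 27 and 30. For the deletion in cystic kidneys, *Ccl28* ran from -0.30 to 0.91, *Cxcl14* from -0.19 (without mouse 25) to 0.42 and *Cxcr4* from -0.020 (without mouse 30) to 0.38, and *Cxcr4* was at -0.10 without mice 27 and 30. Between cystic and noncystic kidneys with the deletion, *Ccl28* ran from -0.89 to 0.19, *Ccl6* from -0.58 to 0.43, *Ccl9* from -0.037 to 0.49, *Cxcl1* from -0.020 to 0.72 and *Ccr2* from -0.19 to 0.22, each lowest without mouse 30. Without mice 27 and 30, *Ccl6*, *Ccl9*, *Cxcl1* and *Ccr2* were at -0.58, -0.037, -0.020 and -0.19, and *Ccl28* was at -0.89. Genes with under 100 reads, 18 of the 51, limit what depth can show.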

Other observations

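*Ccl28*, a ligand that mucosal epithelia make, varied in a way that cut across the groups. It was at 1.48 CPM in mouse 20, 0.979 CPM in mouse 26 and 1.30 CPM in mouse 28, and at 4.29 to 8.75 CPM in the other 9 mice. The 3 mice with low values came from 3 different groups, and no comparison of *Ccl28* passed. Its receptor *Ccr10* was at 1.25, 0.734 and 0.577 CPM in the same 3 mice, the last of these the lowest of all 12 but close to 0.577 CPM in mouse 30.

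The cystic *Pkd2* +/+ mice differed from each other in which chemokine genes were high. Mouse 25 had the highest values of *Ccr2* (14.7 CPM), *Ccl6* (20.3 CPM), *Ccl9* (11.2 CPM), *Ccr7* (1.35 CPM) and *Ccl22* (1.55 CPM) and the lowest of *Cx3cr1* (19.3 CPM). Mouse 26 had the highest values of *Ccl2* (6.12 CPM), *Ccl12* (7.98 CPM), *Cxcl10* (11.3 CPM) and *Cxcl14* (203 CPM) and the highest sum of macrophage and monocyte markers (723 CPM, against 540 CPM in mouse 25). With 3 mice these differences have no test.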
